A study of Mus musculus with 2 samples.

Results

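The 8 E2F transcription factor genes (E2f1 to E2f8) and the pocket protein genes Rb1 and Rbl1 were followed in mouse primary hepatocytes made to express the zinc finger factor KLF14. These 10 genes were picked by symbol among the 35129 genes of the deposited tables, after earlier results of these data were known and because E2f2 stood out, so the values that drew attention to E2f2 are given here as a description. Hepatocytes of C57BL/6 mice had received an adenovirus with KLF14 (Ad-KLF14) or a control adenovirus labelled GFP (Ad-GFP), which the design text calls an empty vector. Both groups had thus been infected, and no label gives the sex or age of the mice, the virus dose or the time after infection. Each group has 1 table of expression values, treated as 1 library, so no test between the conditions was possible. The design text mentions triplicates and, in one place, retinal profiles, while the sample labels name primary hepatocytes.

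E2F proteins bind DNA at the promoters of genes for S phase and mitosis, mostly as dimers with a DP protein. E2F1, E2F2 and E2F3 activate such genes, E2F4 and E2F5 mainly carry repression by pocket proteins, E2F6 represses through Polycomb group partners, and the atypical E2F7 and E2F8 repress without a DP partner. The pocket proteins RB (Rb1), p107 (Rbl1) and p130 (Rbl2) hold E2Fs in check until cyclin-dependent kinases phosphorylate them. Adult hepatocytes rest outside the cell cycle but can return to it, and E2F7 and E2F8 are known for their part in making liver cells polyploid.

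Promoter sequence is shown for E2f2 and E2f7, both higher with Ad-KLF14, and for Rbl1, the one member at least 2-fold lower, because KLF factors recognise GC-rich and CACCC-type elements and E2F genes are known E2F targets. Of the 10 members 7 had an entry in the RefSeq promoter table (build GRCm38.p6), with 9 start sites, and those 3 genes have a window of 250 bases that lies wholly before the first annotated start. The window of E2f2 is chr4:136172024-136172273 (+ strand), that of E2f7 chr10:110745189-110745438 (+ strand) and that of Rbl1 chr2:157204535-157204784 (− strand). Capitals mark an E2F site (TTTGGCGC, TTTCCCGC, TTTCGCGC or TTTGCCGC), a GC box (GGGCGG) or a GT box (CACCC), each searched on both strands.
E2f2: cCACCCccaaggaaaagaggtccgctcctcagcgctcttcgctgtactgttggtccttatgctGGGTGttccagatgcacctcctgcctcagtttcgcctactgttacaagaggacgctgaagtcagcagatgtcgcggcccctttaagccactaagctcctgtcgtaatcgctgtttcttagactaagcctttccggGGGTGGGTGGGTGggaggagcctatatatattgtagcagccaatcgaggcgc
E2f7: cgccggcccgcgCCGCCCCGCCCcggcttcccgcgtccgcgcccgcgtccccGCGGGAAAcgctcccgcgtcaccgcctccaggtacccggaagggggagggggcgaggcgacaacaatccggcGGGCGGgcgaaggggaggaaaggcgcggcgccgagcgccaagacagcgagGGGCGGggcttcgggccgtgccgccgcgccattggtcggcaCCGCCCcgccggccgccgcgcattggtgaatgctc
Rbl1: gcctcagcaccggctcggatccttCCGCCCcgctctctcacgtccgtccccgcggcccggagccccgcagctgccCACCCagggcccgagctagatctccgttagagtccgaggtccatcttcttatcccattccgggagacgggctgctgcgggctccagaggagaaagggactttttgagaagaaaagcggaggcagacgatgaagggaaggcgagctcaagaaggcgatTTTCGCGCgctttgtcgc

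The printed E2f2 window held no E2F site and no GC box but 5 GT box matches, 3 of them in one run that starts 52 bases before the start site, where neighbouring matches share a base. Across 32851 windows of the same length 52.0% held a GT box, and 0.667% held as many as 5. The window of the second E2f2 start site, which lies inside the gene and is not printed, held 1 GC box and 3 GT box matches. The E2f7 window, with a GC content of 79.2%, held 5 GC boxes and an E2F site. A GC box was present in 32.7% of all windows, as many as 5 in 1.93%, and an E2F site in 1.86%. The CCAAT box and the motif TTTGAA were searched as well and are not reported here. The Rbl1 window held an E2F site that starts 18 bases before the start site, 1 GC box and 1 GT box. Of the 9 member windows, 6 held a GC box and 3 an E2F site. Windows not printed do not lie wholly before the first annotated start. E2f1 held 4 GC boxes and the E2f3 windows held 3 and 1, and both genes were slightly lower with Ad-KLF14. E2f8, 3.39-fold higher, held 0 GC boxes and 1 GT box, and E2f6, 1.85-fold higher, held 0 and 4. These are matches of letters, and binding was not measured. Whether matches go with differences between the libraries was not tested.

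Levels are FPKM, read numbers scaled to gene length and to the library total, so levels of different genes can be compared. The read numbers behind them were estimated from the values, with totals of 11151711 reads (Ad-KLF14) and 11311344 reads (Ad-GFP). Intervals below are exact 95% counting intervals, and they cover counting error only, not differences between cultures. Klf14 itself stood at 13164 FPKM with Ad-KLF14, 3.91% of that library, and at 0.298 FPKM with Ad-GFP, which fits the labels, and virus and endogenous transcripts were not told apart. The comparison covers 12419 genes that averaged 1 FPKM or more. On log2(FPKM + 1) the higher level by 2-fold or more was in the Ad-KLF14 library for 6.37% of them and in the Ad-GFP library for 8.99%, 15.4% in all. All 10 members passed the minimum of 1 FPKM. The 6 hepatocyte markers ranged from Alb at 4172 and 5115 FPKM to Cps1 at 2.80 and 4.91 (Ad-KLF14 first here and below). Of these markers 5 were lower with Ad-KLF14 and 1, Hnf4a, was higher (34.1 and 26.2 FPKM), 0 of them by 2-fold, and the median log2 ratio was −0.24.

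By that measure E2f2, E2f8 and E2f7, 3 of the 10 members, were higher with Ad-KLF14, 1 member (Rbl1) was lower, and 6 lay under 2-fold. As the members were noted for this contrast, nothing is read from these counts against the shares of 6.37%, 8.99% and 15.4% among all genes. The median log2 ratio of the members was 0.20, that of the 9 without E2f2 was 0.06, and that of all genes was −0.03. The counting interval of the ratio lay above 1 in 5 members and below 1 in 3, and over all genes it did so in 35.1% and 39.2%, or 74.3% on either side. A counting interval apart from 1 was therefore common in these libraries. In RNA from whole cultures, a change in the number of cells of a type and a change of RNA per cell cannot be told apart.

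**Figure D1:**
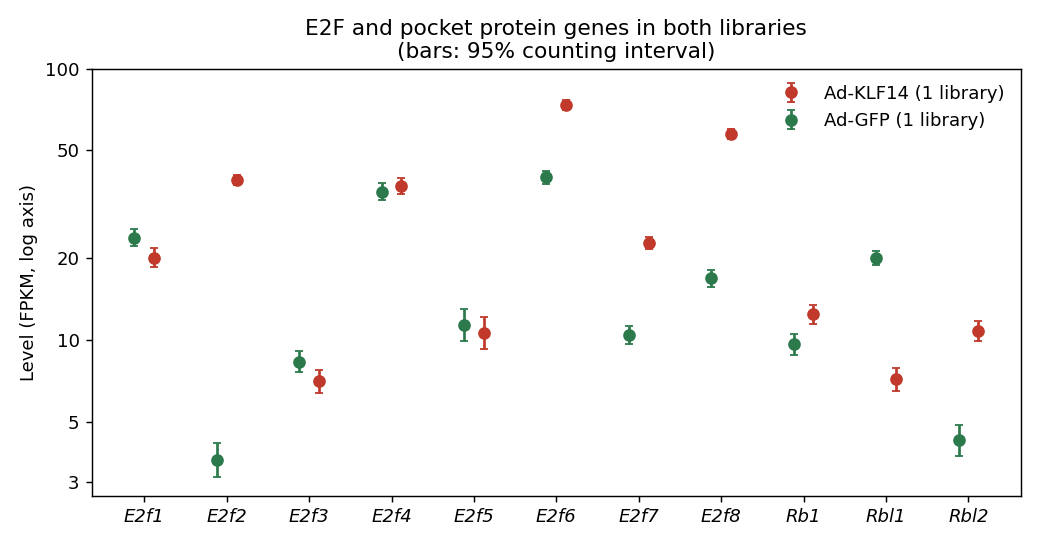
Level of each gene in FPKM (log axis) in the Ad-GFP (green) and Ad-KLF14 (red) library, 1 library each, with bars for the 95% counting interval. E2f2 was the lowest member with Ad-GFP at 3.64 FPKM and the third highest with Ad-KLF14 at 38.9 FPKM. Rbl2 is shown beside the 10 members.

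Among the activators, E2f2 stood at 38.9 FPKM with Ad-KLF14 and 3.64 FPKM with Ad-GFP, from 2054 and 195 reads. The ratio was 10.7 (counting interval 9.22 to 12.4), and the log2 ratio of 3.10 was the third highest of the 12419 genes. The read number rests on a gene length of 4739 bases, equal to the longest reference transcript of E2f2. The other activators did not share this difference. E2f1, which also takes part in cell death and metabolism, was at 20.1 and 23.9 FPKM, a ratio of 0.843 (interval 0.757 to 0.939, or 0.604 to 1.17 with the smallest read numbers that fit the values). E2f3, whose a and b isoforms are not separated in a value per gene, was at 7.07 and 8.34 FPKM, a ratio of 0.848 (interval 0.741 to 0.970). Both were slightly lower with Ad-KLF14, by less than the 1.5-fold within which 62.3% of all genes lay.

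E2f2 thereby went from below to above E2f1. The level of E2f2 was 0.152 times that of E2f1 with Ad-GFP (counting interval 0.1295 to 0.1787) and 1.93 times with Ad-KLF14 (1.76 to 2.12). Summed over E2f1, E2f2 and E2f3, the activators stood at 66.1 FPKM with Ad-KLF14 and 35.8 with Ad-GFP. Without E2f2 the sum was 27.2 and 32.2 FPKM, so the higher sum was that of E2f2.

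The E2Fs that work with pocket proteins in repression were nearly equal in both libraries. E2f4, the main E2F of resting cells, was at 36.9 and 35.3 FPKM, a ratio of 1.05 (interval 0.948 to 1.15). E2f5 was at 10.7 and 11.4 FPKM, a ratio of 0.934 (interval 0.770 to 1.13). Both intervals hold 1, so no difference beyond counting error was seen at this depth. With the smallest read numbers that fit the values they were 0.836 to 1.31 and 0.708 to 1.23. With 1 library a group, such intervals do not bound a difference between the conditions. The annotated span of E2f5 overlaps that of 1810022K09Rik (54.3 and 48.3 FPKM), and whether the counting used strand is not stated. E2f6, the Polycomb-linked repressor, was the highest member in both libraries, at 73.5 and 39.7 FPKM. Its ratio of 1.85 (interval 1.72 to 1.99) stayed under 2-fold.

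The atypical E2Fs were both higher with Ad-KLF14. E2f8 was at 57.3 and 16.9 FPKM, 3.39-fold higher (interval 3.12 to 3.69), from 2359 and 705.5 reads. The uneven read number follows from the gene length of 3691 bases, that of the longest reference transcript, and how the authors counted reads with several matches is not stated. Gm2788, whose annotated span overlaps that of E2f8, was at 3.23 and 1.11 FPKM. E2f7 was at 22.9 and 10.5 FPKM, 2.18-fold higher (interval 1.99 to 2.40), and is the member closest to the 2-fold limit from above, as E2f6 is from below. With a pseudocount of 5 FPKM its log2 ratio was 0.85, under 2-fold. The level of E2f8 was 2.51 times that of E2f7 with Ad-KLF14 (interval 2.35 to 2.68) and 1.61 times with Ad-GFP (1.45 to 1.80). Together the atypical genes summed to 80.2 and 27.4 FPKM, a ratio of 2.93.

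**Figure D2:**
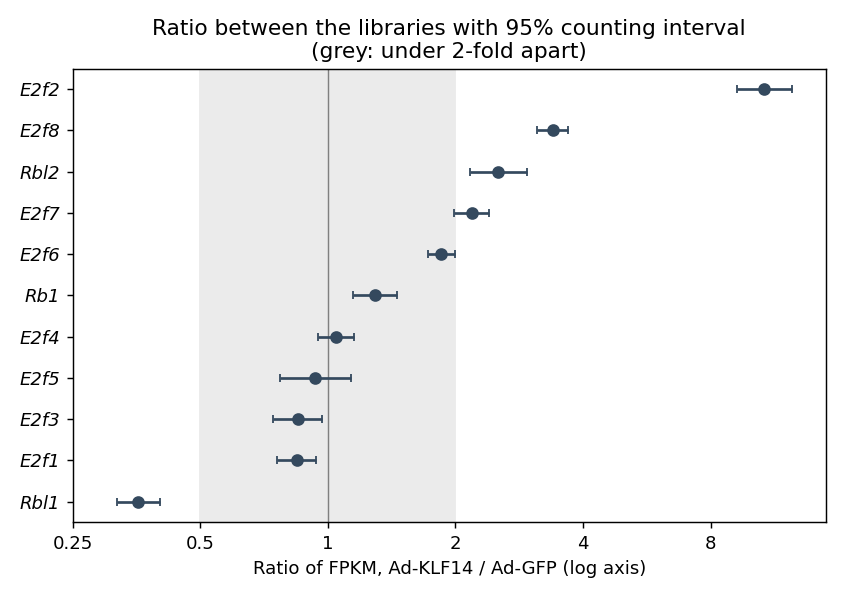
Ratio of FPKM between the libraries (Ad-KLF14 over Ad-GFP, log axis) for the 10 members and Rbl2, with the 95% counting interval as bars and the range under 2-fold in grey. E2f2 at 10.7 lies apart from E2f8 at 3.39, and Rbl1 at 0.357 is the only gene left of the grey range.

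The 8 E2f genes together stood at 267 FPKM with Ad-KLF14 and 150 FPKM with Ad-GFP, a ratio of 1.79, and without E2f2 at 228 and 146 FPKM. The share of E2f2 in this sum was 14.5% and 2.43%, and that of E2f8 21.4% and 11.3%. The share of E2f4 and E2f5 was 17.8% with Ad-KLF14 and 31.2% with Ad-GFP, although their own summed level was almost the same (47.6 and 46.7 FPKM). E2f6 kept close to its share, at 27.5% and 26.6%. These sums weigh transcripts, and E2F protein was not measured.

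**Figure D3:**
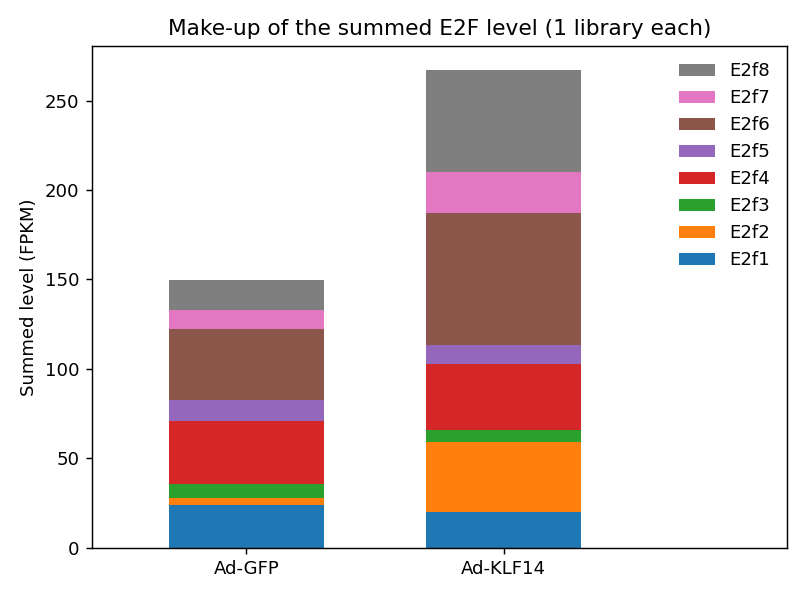
Summed level of the 8 E2f genes in FPKM, stacked by gene, in the Ad-GFP and the Ad-KLF14 library (1 library each). The sum was 150 FPKM with Ad-GFP and 267 with Ad-KLF14, with the added height mostly in E2f2, E2f6 and E2f8.

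The pocket protein genes went different ways. Rb1, the retinoblastoma gene, was at 12.5 and 9.65 FPKM, a ratio of 1.29 (interval 1.15 to 1.45). The annotated span of Lpar6 (5.49 and 6.52 FPKM) overlaps that of Rb1. Rbl1, which encodes p107 and is itself a known E2F target, was at 7.18 and 20.1 FPKM, 2.80-fold lower with Ad-KLF14 (interval 2.49 to 3.15), from 391 and 1111 reads. Rbl2, which encodes p130, the pocket protein of resting cells, is no member but completes the family, and it was at 10.8 and 4.29 FPKM, 2.53-fold higher (interval 2.17 to 2.95). Rbl1 was the highest of the pocket genes with Ad-GFP and the lowest with Ad-KLF14.

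The sum of the 3 pocket genes was 30.5 FPKM with Ad-KLF14 and 34.1 with Ad-GFP, a ratio of 0.895, so the family differed more in make-up than in sum. Rbl1 made up 23.6% of that sum with Ad-KLF14 and 59.1% with Ad-GFP, and Rbl2 35.5% and 12.6%. The level of Rbl2 was 1.51 times that of Rbl1 with Ad-KLF14 (interval 1.32 to 1.72) and 0.213 times with Ad-GFP (0.184 to 0.245).

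In the order of levels, the Ad-GFP library ran from E2f6 through E2f4, E2f1, Rbl1, E2f8, E2f5, E2f7, Rb1 and E2f3 down to E2f2. Counting intervals of neighbours overlapped for E2f6 and E2f4, for E2f5 and E2f7, for E2f7 and Rb1, and for Rb1 and E2f3. With Ad-KLF14 the order was E2f6, E2f8, E2f2, E2f4, E2f7, E2f1, Rb1, E2f5, Rbl1 and E2f3. Here E2f2 and E2f4, E2f7 and E2f1, Rb1 and E2f5, and Rbl1 and E2f3 overlapped.

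**Figure D4:**
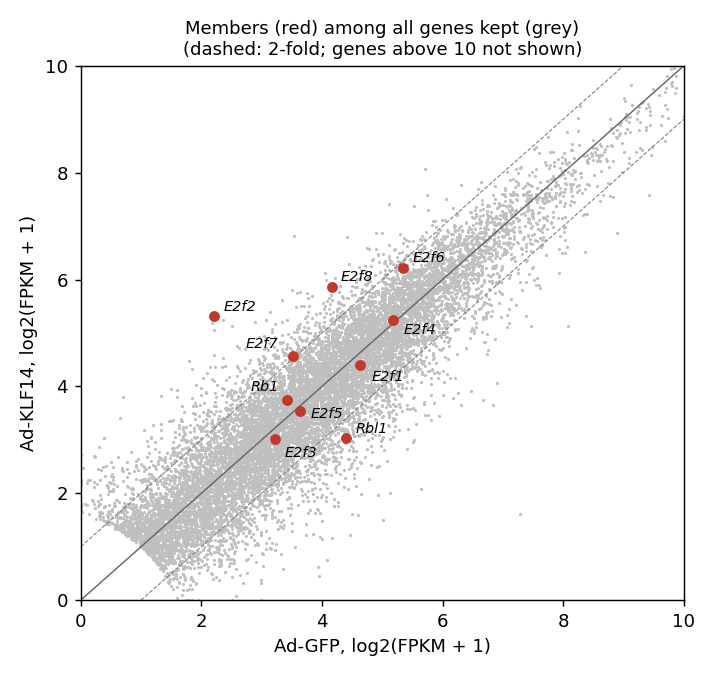
Level of 12419 genes (grey) and of the 10 members (red) in the Ad-GFP library (x axis) and the Ad-KLF14 library (y axis), both log2(FPKM + 1), with dashed lines at 2-fold. E2f2 lies farthest above the upper line among the members, and Rbl1 is the only member below the lower one.

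The 5 genes whose pair of log2(FPKM + 1) values lay nearest to that of E2f2 were Cited1, Pdxp, Mmp17, Zkscan14 and Clspn, at distances of 0.13, 0.16, 0.26, 0.35 and 0.67 over the 2 libraries. Clspn, which encodes claspin, a replication fork protein of the checkpoint, was at 26.1 and 5.0 FPKM, 5.21-fold higher (interval 4.58 to 5.94). With 2 libraries such nearness says only that these genes had similar levels in each. On the chromosome, the measured genes next to E2f2 did not share its difference. Id3, an inhibitor of basic helix-loop-helix factors, was at 91.5 and 99.9 FPKM (ratio 0.915). Asap3, on the other side, was at 0.819 and 7.11 FPKM, 8.68-fold lower with Ad-KLF14 (interval 6.49 to 11.8).

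The partners and regulators of E2F and pocket proteins were taken from 10 lists with 115 genes in all, drawn up from general knowledge. Earlier results of these data were known when the lists were chosen, so nothing is read from their counts against the shares of all genes. Of the DP partners, Tfdp1 was at 87.5 and 125 FPKM (1.43-fold lower) and Tfdp2 at 11.3 and 5.89 FPKM (1.92-fold higher), so neither was 2-fold apart. With p130, the MuvB proteins form the DREAM complex that holds cell cycle genes silent, and with B-Myb or FoxM1 they activate mitotic genes. Of 8 genes in that list 3 were at least 2-fold higher and 0 lower, with a median log2 ratio of 0.62. Among all genes the shares were 6.37% higher and 8.99% lower. Lin52, the MuvB subunit that contacts p130, was at 19.8 and 4.25 FPKM (4.66-fold, interval 3.76 to 5.82), and Mybl2, which encodes B-Myb, was at 18.7 and 6.28 FPKM (2.98-fold). The third was Rbl2, and the lowest ratio was that of Foxm1, at 1.95 and 3.99 FPKM (0.489), which is under 2-fold on log2(FPKM + 1), the scale of these counts.

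The list of G1 cyclins, cyclin A2 and the kinases that phosphorylate pocket proteins had 9 genes and a median of 0.36. Of these 1 was at least 2-fold higher and 0 lower, beside shares of 6.37% and 8.99% among all genes. The higher gene was Ccna2 (cyclin A2), at 28.0 and 11.7 FPKM (2.39-fold), which is also in the list of G2 and mitosis genes. With a pseudocount of 5 FPKM the count was 0. Cyclin D1, Ccnd1, was at 15.5 and 8.16 FPKM (1.90-fold higher), the kinase gene Cdk4 at 89.9 and 128 (1.43-fold lower) and Cdk2 at 26.6 and 43.5 (ratio 0.612). Among 6 measured inhibitors of these kinases, 2 were at least 2-fold higher and 1 lower, beside the same shares among all genes. Cdkn1c (p57) was at 14.8 and 3.0 FPKM (4.92-fold) and Cdkn2c (p18) at 43.6 and 10.9 (4.01-fold). Cdkn2b (p15) was at 1.80 and 15.0 FPKM, 8.31-fold lower, while Cdkn1a (p21), the highest of them, was at 398 and 474.

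Of 11 corepressors that pocket proteins recruit, only Arid4a, which encodes an RB-binding protein, was 2-fold apart, beside a share of 15.4% among all genes. Arid4a was at 20.7 and 6.87 FPKM (3.02-fold higher), and the median of the list was −0.13. In the list of 10 Polycomb partners of E2F6, Rnf2, the ubiquitin ligase of the complex, was at 8.32 and 23.9 FPKM (2.87-fold lower), and none was at least 2-fold higher on log2(FPKM + 1), although L3mbtl2 (25.5 and 12.7 FPKM) reached that limit when the total was taken without Klf14 reads. The median of that list was −0.29, with 7 of 10 genes below 0, and E2f6 itself went the other way. Of 7 genes for the turnover of E2F and pocket proteins 3 were at least 2-fold higher, and 1 was with a pseudocount of 5 FPKM. For this list and the Polycomb list, the shares among all genes were 6.37% higher and 8.99% lower with the pseudocount of 1 FPKM. Ccnf, the cyclin F of an SCF ubiquitin ligase, was at 74.0 and 23.4 FPKM (3.17-fold), Skp2 at 14.9 and 5.92 (2.52-fold) and Fbxo5, which encodes the APC/C inhibitor EMI1, at 29.7 and 13.8 (2.15-fold).

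The listed genes that E2F proteins are known to drive at the entry to S phase were mostly higher with Ad-KLF14. Of 38 measured genes 30 lay above 0 and 8 below, and the median log2 ratio was 0.53 against −0.03 for all genes. Of the 38, 9 reached 2-fold upward and 3 downward, beside shares of 6.37% and 8.99% among all genes. The counting interval lay above 1 in 26 of the 38 and below 1 in 7, beside shares of 35.1% and 39.2%. As this list was chosen with earlier results known, nothing is read from these counts against those shares. With a pseudocount of 5 FPKM the number that reached 2-fold upward was 4. The repair gene Brca1 was at 19.4 and 5.07 FPKM (3.83-fold, interval 3.42 to 4.30), Cdc6, which loads the replicative helicase, at 18.9 and 6.98 (2.71-fold), Rrm2 of ribonucleotide reductase at 137 and 57.6 (2.37-fold) and Mcm10 at 19.5 and 7.82 (2.49-fold). Mybl2 is in this list too.

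The helicase subunits differed among themselves. Mcm3, Mcm4, Mcm5 and Mcm7 were 1.68-fold, 1.70-fold, 1.86-fold and 1.55-fold higher, while the ratio was 1.03 for both Mcm2 and Mcm6. The 3 lower genes were Tk1 (thymidine kinase 1) at 3.86 and 22.1 FPKM (5.71-fold lower, interval 4.69 to 7.01), the mismatch repair gene Msh6 at 16.03 and 48.7 (3.04-fold lower) and the checkpoint kinase gene Chek1 at 6.70 and 15.8 (2.36-fold lower). Among the cyclin E genes, Ccne2 was 1.82-fold higher and Ccne1 had a ratio of 0.766.

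The next list holds genes of G2 and mitosis that E2F4 and MuvB are known to control. Of 19 measured genes 14 lay above 0 and 5 below, and the median was 0.34. Of the 19, 4 reached 2-fold upward and 0 downward, where the shares of all genes were 6.37% and 8.99%. The counting interval lay above 1 in 11 of the 19 and below 1 in 4, where the shares of all genes were 35.1% and 39.2%. This list too was chosen with earlier results known, so nothing is read from its counts against those shares. With a pseudocount of 5 FPKM 1 of them reached 2-fold. Those 4 were Mki67, the kinase gene Aurka (18.4 and 8.07 FPKM, 2.27-fold), Cdca8 of the chromosomal passenger complex (2.17-fold, with 21.7 FPKM in the Ad-KLF14 library) and Ccna2. Bub1b (3.84 and 6.51 FPKM), Birc5 (1.94 and 3.31) and Kif11 (1.92 and 2.95) were lower with Ad-KLF14.

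Markers of other liver cells were measured beside these genes. Of 6 macrophage markers 5 averaged 1 FPKM or more. Of these 5, 1 was at least 2-fold higher and 1 lower, beside shares of 6.37% and 8.99% among all genes. The 6 markers summed to 188 and 120 FPKM, with Cd68 at 160 and 71.1 and Mpeg1 at 17.1 and 40.1. The Kupffer cell marker Clec4f was at 0.411 and 0.332. The 6 endothelial markers summed to 6.39 and 5.15 FPKM, and the 6 stellate cell markers to 0.293 and 0.626, with Des and Lrat at 0 in the Ad-KLF14 library. The 5 bile duct markers summed to 194 and 688 FPKM, nearly all of it Spp1, with Krt7 at 0 in both. Cd3e, Nkg7, S100a9, Ly6g and Mpo were at 0 in both libraries. The part of such cells in the E2F values was not tested.

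**Figure D5:**
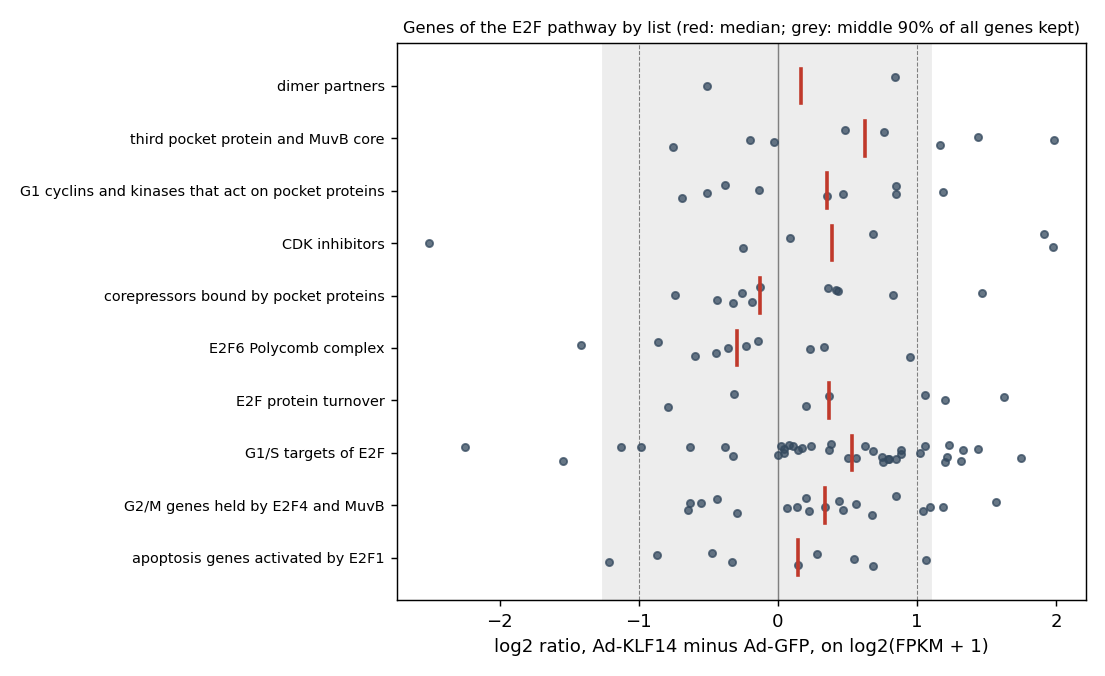
Difference of log2(FPKM + 1) between the libraries (Ad-KLF14 minus Ad-GFP) for each gene of the 10 lists that averaged 1 FPKM or more, with the list median in red, the middle 90% of all genes in grey (−1.25 to 1.10) and dashed lines at 2-fold. The list of G1/S targets has its median at 0.53 and the Polycomb list of E2F6 at −0.29.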

How the data were processed

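RNA of 1 Ad-KLF14 and 1 Ad-GFP hepatocyte sample was extracted with Trizol and made into libraries with a TruSeq kit, per the labels' protocols. Bowtie 0.12.2 and build mm8 are listed in the submitters' processing notes, while gene models, read counting and strand are not given in the sources used here. The authors deposited FPKM values, 1 per gene symbol and library.

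Totals were found from the steps of the values. For all 16944 genes above 0 in both libraries, the ratio was written as a ratio of whole numbers times 1 constant (relative tolerance 1e-11). The whole numbers could be so large that nearly any ratio would pass, so this is no evidence for the read numbers. The common factor of 9 in the totals was chosen because it brought 87 of 563 genes with equal reads within 0.2% of a GENCODE M21 transcript length, against 19 for the next factor. Read numbers were then scaled so that the implied length came nearest to the longest reference transcript of the gene. After this scaling 9 of the 10 members lay within 5% of it, a closeness that the scaling itself favours. They are estimates and set interval widths and the Klf14 share only. Intervals of ratios are Clopper-Pearson and those of levels exact Poisson, at 95%. PCR reads without molecular identifiers are not independent molecules.

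Log2 ratios use a pseudocount of 1 FPKM and understate differences of low genes, whereas folds are plain ratios of FPKM. Genes that averaged 1 FPKM or more were kept, and 2-fold is a rule of size. Named are all members, the list genes at least 2-fold apart (up to 6 per list, largest first) with others from short lists, the 5 genes nearest to E2f2 and its neighbours on the chromosome. Other list genes, such as the Mcm genes, Ccne1, Ccne2, Bub1b, Birc5 and Kif11, were named after their values were seen. A few list genes are counted but not reported by name here. Members and lists were chosen with earlier results of these data known. Orc1 was matched as Orc1l through RefSeq synonyms, and RefSeq GRCm38.p6 served for neighbours and promoters only, never for coordinates of mm8 values. Alternatives were pseudocounts of 0.1 and 5 FPKM, no filter, a trimmed mean scaling (30% from each end), Klf14 left out of the total and, added after the data were seen, the smallest whole read numbers. Scripts in Python 3.11.15 with scipy 1.17.1 were tested on simulated data.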

Additional observations from a re-analysis of the deposited data

How the results depend on the processing

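The settings were pseudocounts of 0.1 and 5 FPKM, no filter, trimmed mean scaling and Klf14 left out of the total. No log2 ratio of a member at least 2-fold apart changed sign, but this outcome was fixed beforehand. A common pseudocount or no filter cannot turn a sign. The scalings moved log2 ratios little (trimmed mean −0.04, Klf14 left out 0.06). Members at least 2-fold higher numbered 3 in each of these settings except the pseudocount of 5 FPKM, where 2 remained. The number at least 2-fold lower was 1 in each. With a pseudocount of 5 FPKM, 4 of the G1/S targets were at least 2-fold higher instead of 9, and 1 of the G2/M genes instead of 4. In the same setting the count was 0 instead of 1 for the list of G1 cyclins, cyclin A2 and kinases. It was also 0 instead of 1 for the E2F1 apoptosis genes, and 1 instead of 3 for the turnover genes. Over all genes that setting gave 295 higher and 467 lower instead of 791 and 1117, since a larger pseudocount shrinks every ratio. The log2 ratio of E2f2 ran from 2.34 to 3.38 over the pseudocounts, and that of E2f7 was 0.85 with 5 FPKM, under 2-fold. Leaving Klf14 reads out of the total shifted log2 ratios by 0.06. With the smallest whole read numbers, chosen after the data were seen, the interval of E2f1 was 0.604 to 1.17 and held 1, and that of E2f2 was 6.28 to 19.5. No paired analysis was possible because each group has 1 library, and the same holds for leaving a replicate out. Differences between cultures were not measured, and these limits apply to every value above.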

Other observations

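Genes of cell death that E2F1 is known to activate differed in both directions. Of 9 measured genes 1 reached 2-fold upward and 1 downward, beside shares of 6.37% and 8.99% among all genes. The median log2 ratio of the 9 was 0.14. Pmaip1, which encodes the BH3-only protein NOXA, was at 36.4 FPKM with Ad-KLF14 and 16.9 with Ad-GFP (2.15-fold higher, interval 1.93 to 2.39). Bcl2l11 (BIM) was at 23.9 and 16.04 FPKM and Apaf1 of the apoptosome at 12.9 and 16.5.

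Measured genes next to other members were read as well, and not all are named here. Pxmp4, beside E2f1, was at 19.7 and 3.67 FPKM (5.35-fold higher, interval 4.41 to 6.55), while E2f1 was slightly lower. Elmo3, beside E2f4, was at 1.47 and 4.42 FPKM (3.02-fold lower), and Car13, beside E2f5, at 4.72 and 10.96 FPKM (2.32-fold lower). Lrrcc1, on the other side of E2f5, was at 0.695 and 2.80 FPKM (4.03-fold lower). Mboat1, beside E2f3, was at 1.03 and 3.50 FPKM (3.41-fold lower), and Cdkal1, on its other side, had a ratio of 1.15. Csrp2, beside E2f7, and Nav2, beside E2f8, had ratios of 0.951 and 0.873. Necab3 (0.694 and 0.830 FPKM) overlaps E2f1 in annotated span, and Gm14277 (1.37 and 2.31 FPKM) overlaps Rbl1.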
